A study of Mus musculus with 2 samples.

Results

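The monocyte and macrophage genes described here are 10 genes widely used to recognise cells of the mononuclear phagocyte lineage. They are Csf1r and Spi1 of lineage control, the surface receptors Cd14, Fcgr3, Adgre1 and Mrc1, the phagocyte effectors Cd68, Lyz2 and Cybb, and the secreted protein gene Retnla. Members were taken by name from the gene-name column of both scanner outputs, with control spots left out and the older names Lyzs, Emr1 and Sfpi1 accepted for Lyz2, Adgre1 and Spi1. All 10 were found, among 27975 genes with a probe, and they were read by 17 of the 41174 probes of the array design. Of these genes, 6 have more than 1 probe and the other 4 (Cd14, Cd68, Mrc1 and Spi1) have 1.

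The series measured RNA of sorted Tregs, the Foxp3-expressing regulatory T cells that restrain immune responses, from mice of the C57BL/6 background. Tregs lacking Bcl11b, a zinc finger transcription factor of T cells, were set against wild-type Tregs on 2 two-colour Agilent arrays, 1 per Cre line. One array held Foxp3-GFP+ Tregs from Bcl11bF/F/Cd4Cre/Foxp3-GFP+ mice, in which Cre is driven by the Cd4 promoter of developing T cells, and wild-type Foxp3-GFP+ Tregs. It is called the Cd4Cre array. The other, called the Foxp3Cre array, was assigned by elimination to Bcl11bF/F/Foxp3Cre mice, in which Cre is driven from Foxp3 itself, with wild-type Tregs for which the labels name no reporter. Each wild-type RNA was a pool of 3 mice labelled with Cy3, and each deficient RNA carried Cy5. The labels do not give the number of mice behind the deficient RNA, nor the tissue or age. No dyes were swapped, so dye and genotype cannot be told apart, and the slide and scanner software version differed between the Cre systems. Below, "with Cd4Cre" and "with Foxp3Cre" refer to these arrays.

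Monocytes leave the bone marrow and can become macrophages in tissues, where many resident macrophages are of embryonic origin. The lineage depends on the transcription factor PU.1 and on signalling through the colony-stimulating factor 1 receptor. Its cells carry receptors for bacterial lipopolysaccharide, antibodies and sugars, kill microbes with lysozyme and reactive oxygen, and take on an alternative activation state under the cytokines interleukin 4 and interleukin 13. These genes are not part of the usual programme of T cells. In RNA from a pool of sorted cells, fewer cells of a type and less RNA per cell cannot be told apart.

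The probes are 60-base oligonucleotides. Several are shown so that the reader can see what was hybridised. Those printed read through without a stop codon in at least 1 frame, and are given 5′ to 3′ as the scanner outputs list them. Most of the probes not printed also have such a frame, which is therefore not evidence of coding sequence. Coordinates come from the scanner outputs and refer to mm9. No annotation of mm9 was used, so exon and UTR positions are not given.
Lyz2 (chr10:116719175-116719234, minus strand): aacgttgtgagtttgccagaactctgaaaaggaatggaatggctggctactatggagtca
Cd68 (chr11:69478314-69478373, minus strand): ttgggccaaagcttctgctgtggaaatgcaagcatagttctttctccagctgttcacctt
Fcgr3 (chr1:172984129-172984188, minus strand): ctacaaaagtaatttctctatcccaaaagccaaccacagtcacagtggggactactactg
Adgre1 (chr17:57550221-57550280, plus strand): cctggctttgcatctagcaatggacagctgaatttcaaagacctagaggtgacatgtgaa
Cybb (chrX:9019758-9021685, minus strand): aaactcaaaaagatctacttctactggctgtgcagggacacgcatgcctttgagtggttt
Spi1 (chr2:90939665-90953452, plus strand): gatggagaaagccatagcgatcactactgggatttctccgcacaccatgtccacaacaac
The Cybb probe stretches over 1928 bases of the genome and the Spi1 probe over 13788, so both read across spliced exons. For Cd68 and Spi1 this is the only probe. For the others it is the dimmer of a pair, and the brighter is used for the values below unless stated.

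Promoters were taken from a supplied table of RefSeq promoters (GRCm38.p6), in which 6 of the 10 members were matched, Fcgr3 with more than 1 start. Csf1r, Cd14, Adgre1 and Spi1 were not analysed here. The 250 bases before the start were searched on both strands for 3 motifs: GAGGAA, the core recognised by PU.1, TTCNNNNGAA, a spacing bound by STAT6 (the factor activated by interleukin 4), and TTGCNNAA, of the C/EBP factors. Of 32851 promoters of the same length, 23.3% hold the first, 5.85% the second and 9.56% the third. Retnla and Mrc1 are printed because they are the members at least 2-fold higher in the deficient pool of the Foxp3Cre array. Capitals mark the motifs on either strand.
Retnla (GRCm38.p6, chr16:48842359-48842608, plus strand): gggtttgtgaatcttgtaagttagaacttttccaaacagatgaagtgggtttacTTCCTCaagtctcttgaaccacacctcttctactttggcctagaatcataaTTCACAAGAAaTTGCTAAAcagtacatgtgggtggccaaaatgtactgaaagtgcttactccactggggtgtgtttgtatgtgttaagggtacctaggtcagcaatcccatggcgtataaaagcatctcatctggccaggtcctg
Mrc1 (GRCm38.p6, chr2:14229164-14229413, plus strand): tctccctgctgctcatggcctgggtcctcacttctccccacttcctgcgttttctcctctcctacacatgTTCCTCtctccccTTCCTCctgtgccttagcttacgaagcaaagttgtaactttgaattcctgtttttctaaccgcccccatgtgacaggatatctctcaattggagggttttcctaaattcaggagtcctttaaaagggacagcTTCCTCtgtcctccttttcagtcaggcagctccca
The Retnla window holds all 3 motifs, beginning 196 (PU.1), 145 (STAT6) and 134 (C/EBP) bases before the start, with no overlap between them. The Mrc1 window holds the PU.1 motif at 180, 167 and 35 bases before the start and neither of the others. In Cd68 the PU.1 motif lies 225 and the C/EBP motif 43 bases before the start. Fcgr3 holds a PU.1 and a C/EBP motif in each of its windows, which overlap, so these are the same sites read again. The windows of Lyz2 and Cybb hold none of the 3. A match describes the letters of the window and is not evidence of binding.

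Values below are log2 signals in each pool and the log2 ratio of deficient over wild type, both after background correction and loess normalization, which removes a trend of the ratio with brightness. Signals serve to compare pools for 1 probe and not to compare genes. A gene counts as detected where either channel of its brightest probe was well above background. Between 20689 and 24439 of 43379 gene spots were well above background in the 4 channels, and no spot was saturated. Repeated spots of a probe had an SD of the log2 ratio of 0.063 with Cd4Cre and 0.074 with Foxp3Cre over 245 probes, a measure of spotting error alone. Bcl11b itself read -2.46 and -1.82. All 12 T cell and Treg marker genes (Cd3d, Cd3e, Cd3g, Cd4, Foxp3 and others) were well above background in all 4 pools, as were 8 of the 10 monocyte and macrophage genes. Of all 27975 genes with a probe, 12449 were above background in all 4 pools with a ratio on both arrays. Spi1 was above background in both pools of the Cd4Cre array and in neither of the other, and Retnla in both deficient pools and in neither wild-type pool.

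With 1 array per Cre system there is no replicate, no test and no p-value for either array alone. Genes are therefore counted at 2-fold. Of the 10 members detected with Cd4Cre, 3 were at least 2-fold higher in the deficient pool (Lyz2, Cybb and Retnla), where 11.4% of all 15885 detected genes were, and 3 were at least 2-fold lower (Csf1r, Cd14 and Mrc1), against 10.6% of all. In all, 5 of 10 read above 0, against 47.2% of all genes. Their median log2 ratio was 0.25, with -0.05 over all genes. The Foxp3Cre array detected 9 members. Of these, 2 were at least 2-fold higher (Mrc1 and Retnla; 2.93% of 15204 genes) and 1 at least 2-fold lower (Csf1r; 11.5% of genes), while 7 of 9 read above 0 (45.4% of genes). The median there was 0.52, with -0.08 over all genes. With loess the members thus spread in both directions with Cd4Cre, and mostly lay above 0 by less than 2-fold with Foxp3Cre. With median centring the Foxp3Cre counts became 4 higher and 0 lower with a median of 0.81, and the Cd4Cre counts 4 higher and 2 lower. The shares of all genes moved too, to 13.4% higher and 6.72% lower with Foxp3Cre (median 0.16), and to 18% and 8.3% with Cd4Cre. Keeping only genes above background in all channels, which drops Retnla and Spi1, gave a Cd4Cre median of -0.31.

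**Figure D1:**
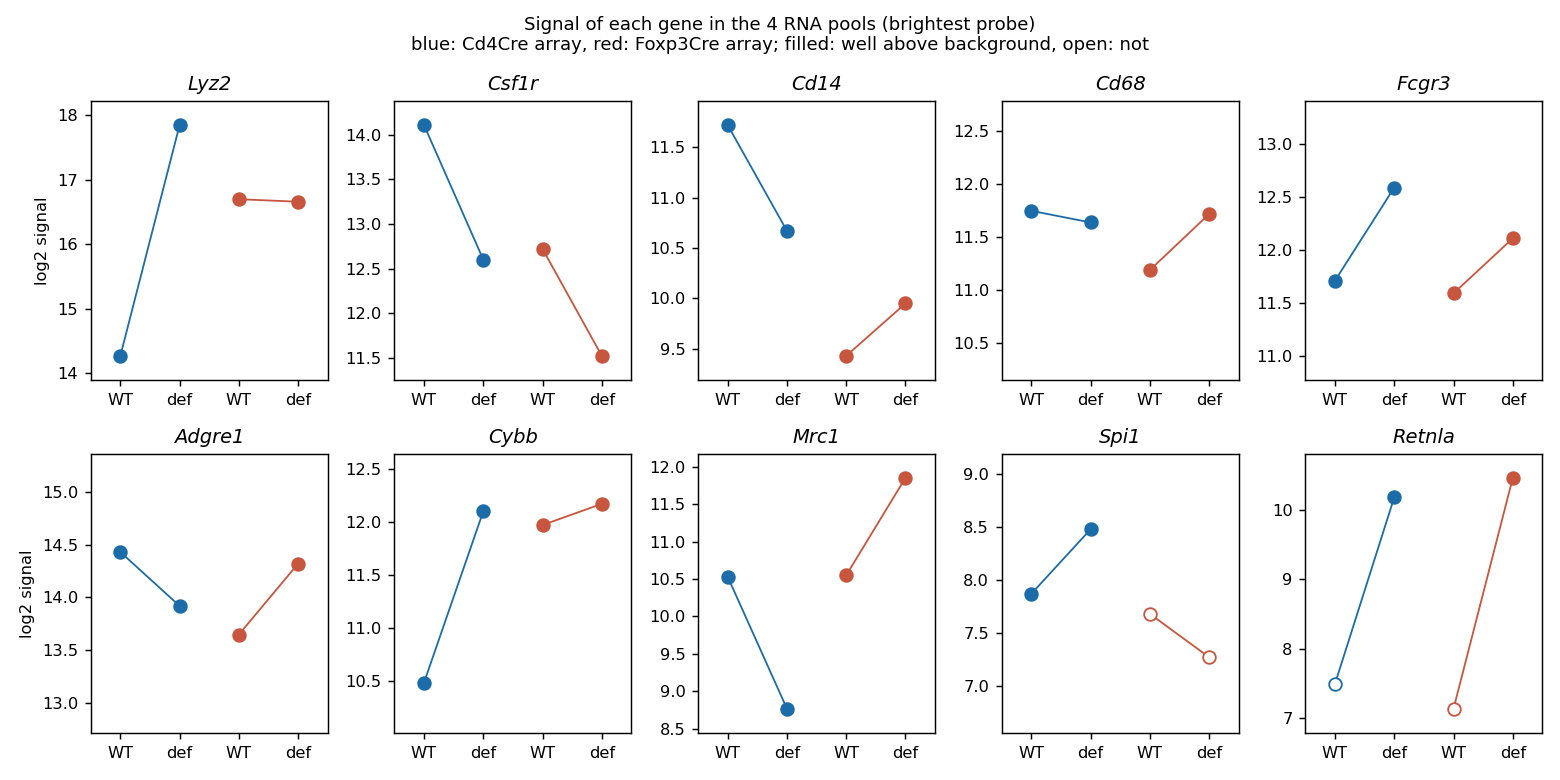
Log2 signal (vertical axes, 1 panel per gene, each with its own scale) of the brightest probe of the 10 genes in the wild-type (WT) and Bcl11b-deficient (def) pools, blue for the Cd4Cre array and red for the Foxp3Cre array, with 1 point per pool and open points not well above background. Lines join the pools of 1 array: Csf1r slopes down and Retnla up on both, while Mrc1 slopes down with Cd4Cre (-1.76) and up with Foxp3Cre (1.30).

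Csf1r encodes the receptor for CSF1 and interleukin 34, on which survival of most macrophages depends. Its brightest probe (chr18:61290384-61290443) read 14.11 in the wild-type pool and 12.60 in the deficient pool of the Cd4Cre array, and 12.72 and 11.52 with Foxp3Cre. At this probe both deficient pools lay below both wild-type pools, with 12.60 close to 12.72. The log2 ratios were -1.5 (2.84-fold lower) and -1.2 (2.29-fold lower). The ratio given by the scanner software was -1.46 (error 0.24) and -1.11 (error 0.23), where the error comes from the software's model of 1 array and holds no biological spread. Median centring without loess gave -1.06 and -0.86, so the second was then under 2-fold. A further probe read -1.24 and -1.29. There the Cd4Cre deficient pool (10.23) lay above the Foxp3Cre wild-type pool (9.97), so the order across arrays depended on the probe. The third was dim: with Cd4Cre it read 8.0 in the wild-type pool and 7.44, not well above background, in the deficient pool, which bounds the difference at 1.09-fold or more, and with Foxp3Cre neither channel was above background. Csf1r was the only member at least 2-fold lower on both arrays, as were 4.56% of the 14386 genes detected on both.

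Spi1 encodes PU.1, the transcription factor that sets the myeloid fate and acts on the promoters of many of the other members. Signals were near the lower limit of detection everywhere: 7.87 and 8.48 in the wild-type and deficient pools of the Cd4Cre array, and 7.68 and 7.27, neither well above background, with Foxp3Cre. The lowest signals counted as well above background were 7.55 to 7.97 in the 4 channels. Its ratio of 0.61 with Cd4Cre was 1.12 (error 0.34) by the scanner software and 0.48 with median centring. No ratio is read from the Foxp3Cre array.

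Cd14, the co-receptor that hands lipopolysaccharide to the TLR4 complex, has 1 probe (chr18:36884969-36885028). It read 11.72 in the wild-type pool and 10.67 in the deficient pool of the Cd4Cre array, and 9.43 and 9.95 with Foxp3Cre. The Cd4Cre pools were both above the Foxp3Cre pools, and the order within each array was opposite. Its log2 ratio was -1.05 (2.08-fold lower) with Cd4Cre and 0.52 (1.43-fold higher) with Foxp3Cre. The scanner software gave -1.17 (error 0.23) and 0.74 (error 0.23), so each sign held there, and median centring gave -0.98, just under 2-fold, and 0.56.

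Fcgr3 encodes the low-affinity IgG receptor CD16, which signals through the shared gamma chain Fcer1g. The brighter probe (chr1:172981647-172981722) read 11.71 and 12.59 in the wild-type and deficient pools of the Cd4Cre array, and 11.59 and 12.11 with Foxp3Cre. At this probe both deficient pools lay above both wild-type pools. The ratios of 0.88 and 0.51 were 1.84-fold and 1.43-fold, short of 2-fold on either array with loess. Median centring gave 1.09, past 2-fold, and 0.81. The probe printed above read 1.03 and 0.29, so with Cd4Cre the pair of probes lay on both sides of 2-fold. At the printed probe the Foxp3Cre deficient pool (10.59) was nearly level with the Cd4Cre wild-type pool (10.55).

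Adgre1 encodes an adhesion receptor that is the classical surface marker of mouse macrophages. At the brighter probe (chr17:57622843-57622902) the wild-type and deficient signals were 14.43 and 13.92 with Cd4Cre and 13.65 and 14.32 with Foxp3Cre, and these groups overlap. Its ratio was -0.51 with Cd4Cre but 0.13 with median centring, so the sign there depended on the normalization. The Foxp3Cre ratio was 0.68, and 1.36 with median centring. The dimmer probe printed above read -0.21 with Cd4Cre and was not well above background in either channel of the Foxp3Cre array.

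Mrc1, the mannose receptor CD206 and a marker of tissue-resident and alternatively activated macrophages, differed in direction between the arrays. The wild-type pools read 10.53 with Cd4Cre and 10.55 with Foxp3Cre. The deficient pools read 8.77 and 11.85, below and above both of them. Its ratio was -1.76 (3.38-fold lower) with Cd4Cre and 1.30 (2.47-fold higher) with Foxp3Cre. The scanner software gave -2.30 (error 0.30) and 1.43 (error 0.24), and median centring gave -1.85 and 1.5. Mrc1 was the only member of 9 to differ by at least 2-fold on each array in opposite directions, which 0.445% of 14386 genes did. The single probe lies at chr2:14253304-14253364.

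Cd68, a lysosomal glycoprotein of phagocytes, read 11.75 and 11.64 in the wild-type and deficient pools of the Cd4Cre array. The Foxp3Cre array gave 11.19 and 11.72. The 4 pools lay within a narrow range, with the Foxp3Cre wild-type pool lowest. The Cd4Cre ratio was -0.11, and 0.027 with median centring, and the Foxp3Cre ratio was 0.53. The scanner software's error of 0.20 with Cd4Cre exceeded its ratio of -0.15.

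Lyz2 encodes the lysozyme of macrophages and neutrophils, which cleaves bacterial cell walls. Its brightest probe, at chr10:116714450-116714509, read 14.27 in the wild-type pool of the Cd4Cre array and 17.85 in the deficient pool, and 16.70 and 16.66 with Foxp3Cre. At this probe the Cd4Cre wild-type pool was far below the other 3. Its ratio was 3.58 with Cd4Cre (12-fold higher), the largest among members measured in both channels, and 3.54 (error 0.39) by the scanner software. The Foxp3Cre ratio of -0.04 was -0.28 (error 0.21) by the scanner software and 1.27 with median centring, so its direction there depended on the normalization. Before normalization this spot had a mean intensity of 65831 in Cy3 and 205098 in Cy5. The dimmer probe printed above read 9.37 and 11.84 with Cd4Cre (2.47) and 9.97 and 9.77 with Foxp3Cre (-0.20), and was -0.14 there with median centring. At the dimmer probe the Cd4Cre deficient pool was far above the other 3, so the pool that stood apart depended on the probe. The near-identical neighbour gene Lyz1 read 2.91 and -0.26 (0.43 for the latter under median centring). Whether the probes of the pair read each other's transcript was not tested.

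Cybb encodes gp91phox, the membrane subunit of the NADPH oxidase that makes superoxide in phagocytes. At the brighter probe (chrX:9014314-9014373) signals were 10.48 in the wild-type pool and 12.10 in the deficient pool of the Cd4Cre array, and 11.97 and 12.17 with Foxp3Cre. At this probe the Cd4Cre wild-type pool was the low one. The ratios were 1.62 (3.07-fold higher) and 0.20 (1.15-fold higher). The probe printed above read 8.93 and 9.66 with Cd4Cre (0.72) and 8.66 and 8.99 with Foxp3Cre (0.33), with the Foxp3Cre wild-type pool lowest. The size with Cd4Cre and the order of the wild-type pools thus depended on the probe.

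Retnla encodes RELM-alpha (Fizz1), a secreted product of macrophages under interleukin 4 and interleukin 13. Its brighter probe (chr16:48844447-48844506) was not well above background in the wild-type pools, which read 7.49 with Cd4Cre and 7.13 with Foxp3Cre. The deficient pools read 10.19 and 10.47, above both. At this probe the difference is therefore a bound: at least 6.19-fold higher with Cd4Cre and at least 7.28-fold higher with Foxp3Cre. The measured ratios were 2.69 and 3.34, and 2.23 and 3.02 without subtraction of background. These bounds hold for this probe and this background correction only. A bound divides the deficient signal by the wild-type signal or, if higher, by the dimmest wild-type signal that passed as well above background, and without a dye swap it is open to dye bias. The other probe shares a run of 50 bases with the first, so it is not a separate reading of the transcript. It gave at least 3.34-fold and at least 4.31-fold, with measured ratios of 2.15 (4.45-fold) and 2.68 (6.4-fold), both under the bounds of the first probe. With loess Retnla was the only member at least 2-fold higher on both arrays, as were 1.34% of 14386 genes. With median centring the brightest probe of Lyz2 was as well (4.68 with Cd4Cre and 1.27 with Foxp3Cre).

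**Figure D2:**
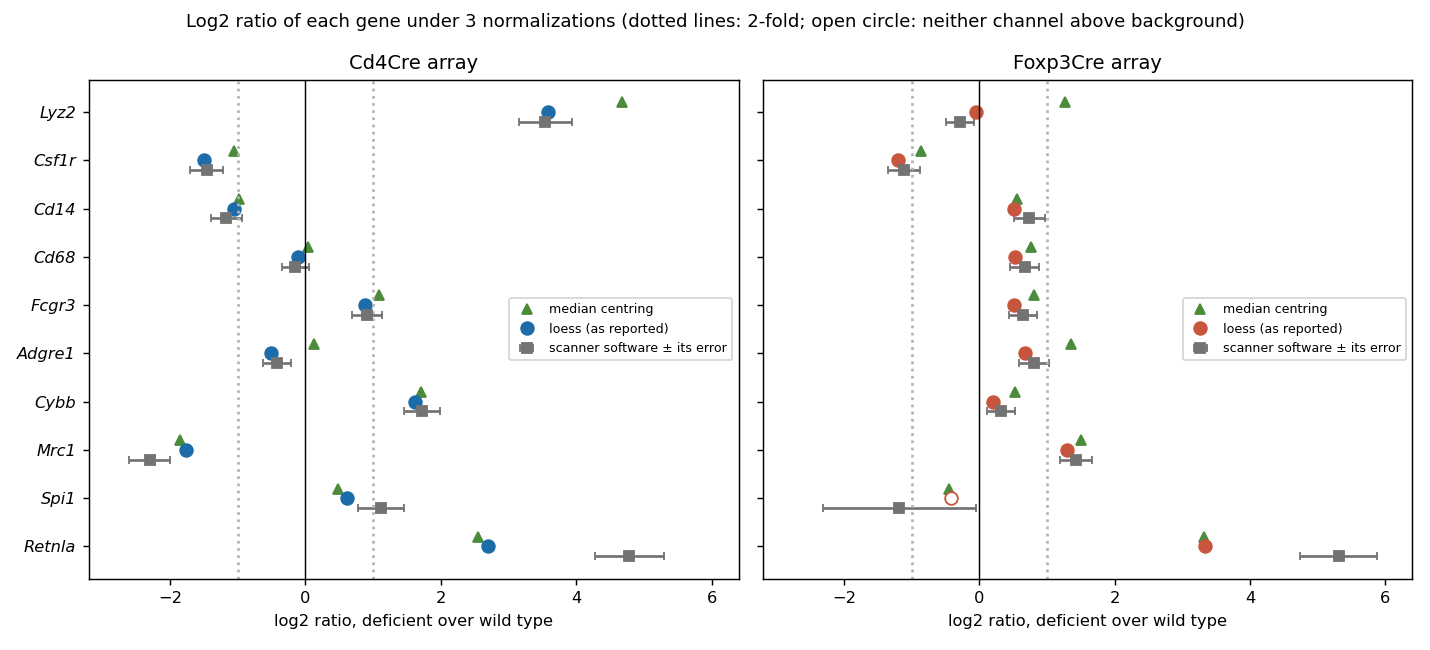
Log2 ratio of deficient over wild type (horizontal axes) of each gene on the Cd4Cre (left) and Foxp3Cre (right) arrays under loess (circles), the scanner software (squares with its own error for 1 array) and median centring without loess (triangles). Signs turn with median centring for Cd68 (-0.11 to 0.027) and Adgre1 (-0.51 to 0.13) with Cd4Cre and for Lyz2 (-0.04 to 1.27) with Foxp3Cre; the open circle marks Spi1, below background with Foxp3Cre.

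With loess, probes of 1 gene had the same sign wherever a channel was above background, while median centring split the sign of the Lyz2 probes with Foxp3Cre (1.27 and -0.14) and of the Adgre1 probes with Cd4Cre (0.13 and -0.34). Ratios of the 6 genes with more than 1 probe differed in size, as the values above give. Of the 9 members detected on both arrays, 5 had ratios of opposite sign (Lyz2, Cd14, Cd68, Adgre1 and Mrc1), and 31.9% of all genes did. For Lyz2, Cd68 and Adgre1 the opposition was lost with median centring. For Cd14 and Mrc1 it held under every normalization run.

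**Figure D3:**
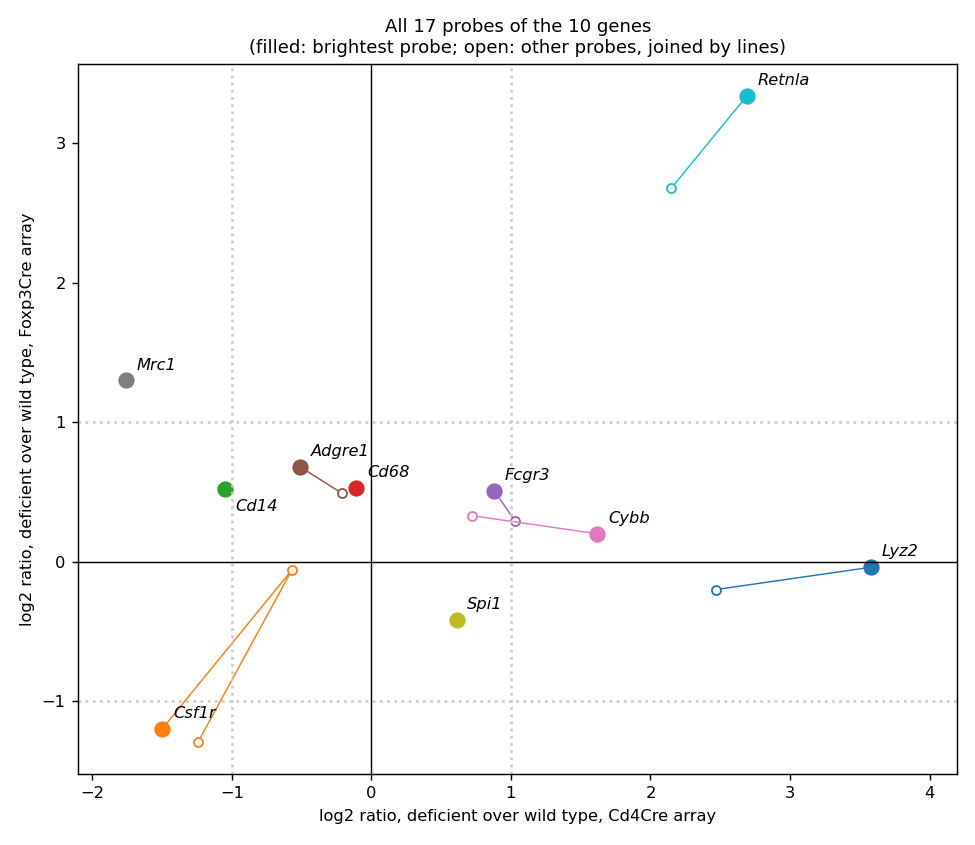
Log2 ratio of deficient over wild type for the Cd4Cre array (horizontal) against the Foxp3Cre array (vertical) for all 17 probes, filled for the brightest probe of a gene and open for the others, joined by lines, with 2-fold marked by dotted lines. Retnla stands at upper right (2.69 and 3.34), Csf1r at lower left (-1.5 and -1.2) and Mrc1 at upper left (-1.76 and 1.30), while Lyz2 lies far right near 0 (3.58 and -0.04, the latter 1.27 with median centring).

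The signals can also be compared between the arrays, pool by pool. Between the wild-type pools, Foxp3Cre minus Cd4Cre, Lyz2 differed by 2.43 and Cybb by 1.49, Cd14 by -2.29 and Csf1r by -1.39, each at its brightest probe. The dimmer Lyz2 probe differed less between the wild-type pools (9.37 with Cd4Cre and 9.97 with Foxp3Cre), and the dimmer Cybb probe in the opposite direction (8.93 and 8.66). Between the deficient pools Lyz2 differed by -1.19 and Cd14 by -0.72, while Cybb (0.07) and Cd68 (0.08) were nearly level. Mrc1 showed the reverse pattern, with 0.02 between wild-type pools and 3.08 between deficient pools. Retnla differed by -0.37 and 0.29. For Fcgr3 the wild-type difference of -0.12 was 0.11 without scaling between arrays. Over all detected genes these differences had a median of 0.07 with an SD of 0.88 in wild type, and a median of -0.12 with an SD of 0.95 in the deficient pools. Slide, software, sort and mice differ between the arrays and cannot be told apart here.

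The mean ratio of both arrays was tested against 0 with limma over 14386 genes, with Benjamini-Hochberg adjustment and 1 residual degree of freedom, so a difference between the Cre systems counts as spread. No member and no other gene passed an adjusted p of 0.05 (0%). At an unadjusted p under 0.05 there were 3 of 9 members and 3254 genes (22.6%). Retnla had a mean log2 ratio of 3.02 (SE 0.35), higher on both arrays, with a limma adjusted p of 0.0975, which ranged from 0.0296 to 0.234 over the alternatives. Csf1r had a mean of -1.35 (SE 0.33), lower on both arrays, with a limma adjusted p of 0.101 and a range from 0.0669 to 0.234. Lyz2, at 1.77 (SE 0.72) from ratios of opposite sign, had a limma adjusted p of 0.198 with a range from 0.0568 to 0.519. The limma adjusted p of Cybb (0.91, SE 0.41) was 0.236 and that of Fcgr3 (0.70, SE 0.33) was 0.258. For Cd14, Cd68, Adgre1 and Mrc1 the mean lay between -0.27 and 0.21 with limma adjusted p between 0.744 and 0.923. Spi1 was not tested.

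The normalization moved the balance of all genes. With loess 11.4% of genes were at least 2-fold higher and 10.6% lower with Cd4Cre, with 2.93% and 11.5% with Foxp3Cre. Median centring gave 18% and 8.30%, and 13.4% and 6.72%, and moved the median of all genes from -0.05 to 0.07 and from -0.08 to 0.16. The scanner software gave 15.1% and 18.7%, and 7.62% and 13.3%.

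The wider pathways of the members were read from 11 further lists, which also hold the members themselves. They name 135 genes, 134 with a probe and 114 detected on both arrays, and of these 11 were higher and 2 lower by at least 2-fold on both arrays (1.34% and 4.56% of all genes). Counts below are at 2-fold, with no test, beside a median of all genes of -0.05 with Cd4Cre and -0.08 with Foxp3Cre. Over all detected genes, 11.4% were at least 2-fold higher and 10.6% lower with Cd4Cre, and 2.93% and 11.5% with Foxp3Cre. Several list counts are near these shares. Bounds below hold for the brightest probe, this background correction and loess only. Median centring raised several counts of higher genes with Foxp3Cre: from 0 to 3 for Fc receptors and ITAM adaptors, from 0 to 1 for the oxidase, from 1 to 2 for classical activation, from 0 to 5 for complement and lysosomal genes and from 4 to 7 for monocyte genes. The share of all genes at least 2-fold higher there rose from 2.93% to 13.4%.

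Around Csf1r, 9 colony-stimulating factor ligands and receptors were detected with Cd4Cre, 3 higher and 2 lower (median 0.63), and 8 with Foxp3Cre, 0 higher and 1 lower (median -0.15). Csf1, a ligand of the receptor, read -1.47 and -0.36, and the stem cell factor receptor Kit 2.38 and 0.29. With Cd4Cre the ratios of Csf1 and Csf1r were both past 2-fold, on the lower side.

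Around Spi1, 14 and 13 PU.1 and partner transcription factors were detected. Of these 2 were higher and 3 lower with Cd4Cre (median 0.44), and 1 higher and 1 lower with Foxp3Cre (median 0.06). The C/EBP family member Cebpd read 2.74 and 0.56, and Id2, an inhibitor of E proteins, 1.87 and 1.27. Klf4, a factor of monocyte differentiation, read -2.19 and -0.43.

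Around Cd14, 10 genes of the lipopolysaccharide receptor complex and Toll-like receptors were detected on each array. Cd14 alone was at least 2-fold lower with Cd4Cre (median 0.15), and 1 gene was higher with Foxp3Cre (median 0.52). That gene was Ly96, which encodes the MD-2 subunit that binds lipopolysaccharide, with 0.83 and 1.2. The lipoprotein receptor chains Tlr2 (0.72 and 0.81) and Tlr6 (0.73 and 0.62) were above 0 on both arrays.

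Around Fcgr3, 8 Fc receptors and ITAM adaptors were detected on each array, with 5 higher and 0 lower with Cd4Cre (median 1.34), and 0 higher and 1 lower with Foxp3Cre (median 0.49). The inhibitory receptor Fcgr2b read 2.80 and 0.70. The adaptors Fcer1g (2.06 and 0.37) and Tyrobp (2.31 and 0.58), which carry the signal of activating receptors in myeloid and NK cells, were also at least 2-fold higher with Cd4Cre.

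Around Cybb, all 7 genes of the phagocyte NADPH oxidase were detected on both arrays. With Cd4Cre 3 of 7 were higher, Cybb and Ncf1 among them (median 0.44, or 1.31 with median centring), and none was 2-fold in either direction with Foxp3Cre, with a median of -0.28 that became 0.55 with median centring. The cytosolic subunit Ncf1 (p47phox) read 1.34 and -0.30, beside Cybb at 1.62 and 0.20.

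Around Retnla and Mrc1, 7 of 11 detected alternative activation genes were higher and 1 lower with Cd4Cre (median 1.30), and 6 of 12 were higher and 0 lower with Foxp3Cre (median 0.99). The lower one was Mrc1. Chil3, the chitinase-like protein Ym1, read 5.82 and 1.88. Its relative Chil4 was at least 9.71-fold higher with Cd4Cre (measured 3.30, or 3.17 with median centring) and read 2.09 with Foxp3Cre. The lectin Cd209a was at least 2.03-fold higher with Cd4Cre (measured 1.62) and read 1.38 with Foxp3Cre. Of the 4 RELM family genes, 2 were detected, Retnla and the granulocyte gene Retnlg, which was at least 14.3-fold higher with Cd4Cre (measured 4.09) and read 2.17 with Foxp3Cre. Classical activation genes, the counterpart state, numbered 3 of 11 higher and 1 lower (median 0.62), and 1 of 9 higher and 0 lower (median 0.51). Interleukin 1 beta (Il1b) read 1.70 and 0.96, the chemokine Cxcl9 2.87 and 0.51, and the cytokine signalling inhibitor Socs3, the lower gene, -1.23 and -0.98, or -0.24 and -0.16 with median centring, which left 0 lower genes with Cd4Cre. With the ratio of the scanner software, 6 of 11 classical activation genes were higher with Cd4Cre (5 with dim genes at their bound). With Foxp3Cre 3 of 9 were (2 at their bound). Alternative activation genes then numbered 7 of 11 and 7 of 12 higher, and all genes 15.1% and 7.62%. No difference between the activation lists was tested.

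Scavenger and phagocytic receptors, which include Cd68 and Mrc1, were mixed: 6 higher and 4 lower of 15 with Cd4Cre (median -0.11), and 2 higher and 1 lower of 14 with Foxp3Cre (median 0.52). At its brightest probe, scavenger receptor A (Msr1) was at least 2.97-fold higher with Cd4Cre (measured 1.57) and read 0.52 on the other. Its lowest probe read 1.16 with Cd4Cre, and median centring gave 1.44, so this bound is not a floor across probes and normalizations. Cd36, which takes up oxidised lipid, was at least 3.52-fold higher (measured 1.82, or 1.68 with median centring) and read 1.31. The apoptotic cell receptor Mertk read -1.84 and -0.27. Besides Mrc1 and Mertk, the lower genes with Cd4Cre, named after their values were seen, were Cd163 (-1.45), the haemoglobin scavenger receptor, and Axl (-1.70), a relative of Mertk. Besides Msr1 and Cd36, the higher ones, named in the same way, were the scavenger receptor Marco (1.38), the lectins Clec7a (1.21) and Cd209b (1.26), and Cd93 (1.39). With Foxp3Cre Marco read -1.53.

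Complement and lysosomal macrophage genes, which include Lyz2 and Cd68, numbered 3 higher and 5 lower of 17 with Cd4Cre, with a median of -0.28. With median centring 5 were higher and 1 lower, with a median of 0.44. None of 17 was 2-fold in either direction with Foxp3Cre, with a median of -0.04 that became 0.67. The higher ones with Cd4Cre were Lyz2, Lyz1 and the protease gene Ctsl (1.02), the last named after its value was seen. The lipid carrier gene Apoe read -1.57 with Cd4Cre and -0.35 with Foxp3Cre (0.47 with median centring). The other lower ones, named after their values were seen, were C1qa (-1.29) and C1qc (-1.14) of the first complement component, the phagosomal metal transporter Slc11a1 (-1.2) and the lysosomal protease Lgmn (-1.03). With median centring Slc11a1 read -1.04, while C1qa (-0.96), Apoe (-0.63), Lgmn (-0.58) and C1qc (-0.53) were below 0 by less than 2-fold.

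Monocyte genes were largely higher with Cd4Cre, with 12 higher and 2 lower of 19 (median 1.37), and 4 higher and 1 lower of 19 with Foxp3Cre (median 0.28). Ccr2, the chemokine receptor that brings monocytes out of the marrow, read 1.37 and 1.17. The chemokines Ccl6 (2.61 and 1.01) and Ccl9 (2.26 and 1.07) and the membrane protein gene Ms4a6d (2.43 and 1.0) were also at least 2-fold higher on both arrays. Plac8 read 4.03 and 0.59. Nr4a1, an orphan nuclear receptor needed by patrolling monocytes and induced by T cell receptor signals, was at least 2-fold lower on both, at -2.82 and -1.36, and -1.54 and -0.46 with median centring.

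**Figure D4:**
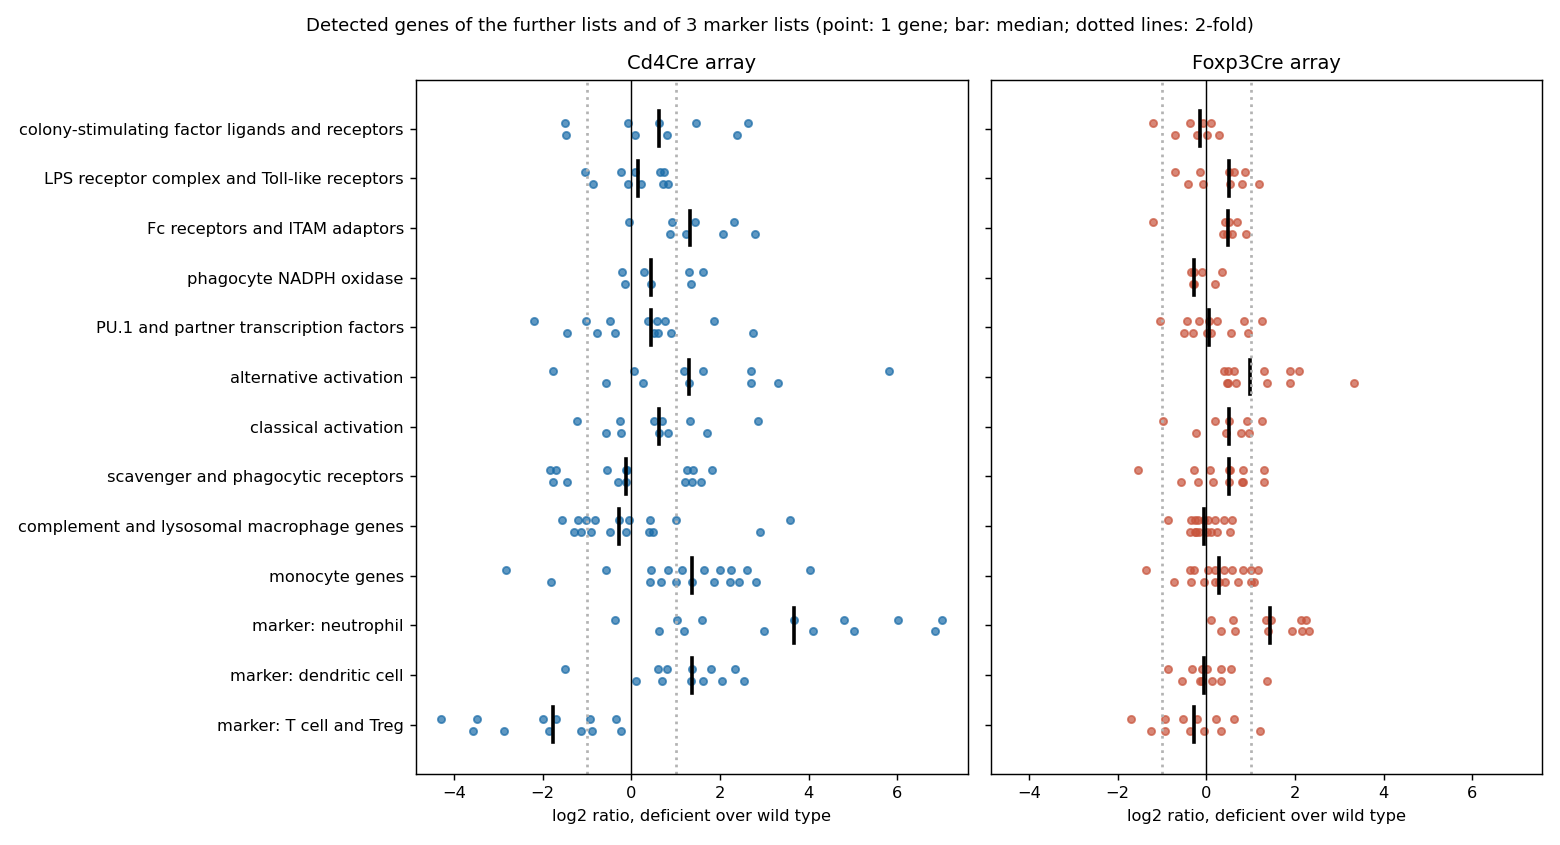
Log2 ratio of deficient over wild type (horizontal axes) on the Cd4Cre (left) and Foxp3Cre (right) arrays for the detected genes of 10 further lists and 3 marker lists (1 row each; 1 point per gene, a bar for the list median, dotted lines at 2-fold). On the Cd4Cre array the medians run from -0.28 for complement and lysosomal genes (0.44 with median centring) to 1.37 for monocyte genes among the further lists, beside 3.67 for neutrophil and -1.77 for T cell and Treg markers.

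Markers of other cells also differed between the pools, and their part in the members' ratios was not tested. Of all detected genes, 11.4% were at least 2-fold higher and 10.6% lower with Cd4Cre, and 2.93% and 11.5% with Foxp3Cre. With median centring these shares were 18% and 8.3%, and 13.4% and 6.72%. Neutrophil markers, some of which monocytes share, had 11 of 13 detected genes at least 2-fold higher with Cd4Cre (10 with dim genes at their bound; median 3.67) and 8 of 12 with Foxp3Cre (median 1.43), with none lower on either. Dendritic cell markers had 7 of 12 higher (median 1.36), and with Foxp3Cre 1 of 12 with a median of -0.04 that became 0.42 with median centring. NK cell markers had 7 of 9 higher (median 2.47) and 1 of 9 (median 0.53). B cell markers had 3 of 9 higher (median 0.88) and 0 of 9 with a median of -0.29 that became 0.07 with median centring. T cell and Treg markers had 8 of 12 lower and 0 higher (median -1.77), and 2 of 12 lower and 1 higher with Foxp3Cre (median -0.28). With median centring these became 6 lower and 1 higher (median -0.84), and 0 lower and 4 higher (median 0.20). Foxp3 read -3.57 and -0.20. Mast cell and basophil markers had 3 of 6 higher (median 0.87) and 5 of 7 (4 with dim genes at their bound; median 1.39). Eosinophil markers had 2 of 3 higher and 1 lower (median 1.35), and 2 of 5 higher (median 0.53). Salivary gland genes were detected for 3 of 8 with Cd4Cre, 1 of them higher (median 0.68), and for 7 with Foxp3Cre, all 7 lower in the deficient pool (median -3.50). These lists were uneven, and the genes given here were named after their values were seen. Of the mast cell and basophil markers, Ms4a2 and Fcer1a were not above background in any pool, nor was the brightest probe of Gata2, while Kit (2.38) and Hdc (1.88) were higher with Cd4Cre. With Foxp3Cre Cma1 read 2.14, and the bounds were 5.40-fold or more for Cpa3 and 5.08-fold or more for Mcpt4, both higher in the deficient pool. Of the eosinophil markers, Epx and Siglecf were not above background in any pool. Prg2 read 1.35 and 1.33, Ear1 1.78 and 0.42, and Ccr3 -1.47 and 1.43. Ear6 (0.53) and Il5ra (0.22) were detected with Foxp3Cre only.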

How the data were processed

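Amplified RNA was labelled with a Kreatech ULS kit, per the labels' protocols. Feature Extraction 10.5.1.1 (Cd4Cre) and 10.7.3.1 (Foxp3Cre) read the images, per the file headers, while the submitters' processing notes name 10.5.1. The authors deposited the mean and local background intensity of each spot and channel, the software's log10 ratio of Cy5 over Cy3 with its error, and flags. The deposited value table equals that log10 ratio (largest difference 0 over 45018 rows, median 0), so direction and scale follow from it.

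From the intensities, background was corrected by normexp (offset 50) and log2 ratios normalized by loess in limma 3.58.1 under R 4.3.3, with control spots at weight 0. Spots flagged as outliers (137 and 155) were dropped before averaging repeats of a probe. Signals per channel were scaled between arrays by the Aquantile method. Probes were named through RefSeq (GRCm38.p6, names only): 24844 by accession, 6045 by symbol, 1810 by synonym, with 8475 under their file name. The brightest probe stands for a gene. limma tested the mean of both arrays with an intercept-only fit, and the script was tested on simulated data. The sample titles number the pools of each array without saying what the numbers mean. Only 1 pool per group is in the series, and the labels do not say whether others were measured.

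The members and lists were chosen with earlier results of these data known. All members are named. Of each further list, the text names genes at least 2-fold in the same direction on both arrays and the 3 with the largest absolute mean ratio, and the exceptions are marked. A gene that this rule names is not reported here. Alternatives were median centring, the ratio of the scanner software, an offset of 10, no subtraction of background, the mean over probes, no filter or a stricter filter on dim probes, keeping outlier spots, an intensity trend in limma and, chosen after seeing the data, no scaling between arrays.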

Additional observations from a re-analysis of the deposited data

Results flagged for a closer look

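In all, 5 members had ratios of opposite sign on the 2 arrays, and the difference between the arrays was not tested. They were Lyz2 (3.58 with Cd4Cre and -0.04 with Foxp3Cre, 1.27 with median centring), Cd14 (-1.05 and 0.52), Cd68 (-0.11 and 0.53), Adgre1 (-0.51 and 0.68) and Mrc1 (-1.76 and 1.30). Each group is 1 array, so each of these ratios is a single value.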

How the results depend on the processing

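No paired analysis was possible because the groups share only replicate number 1 and each array already pairs its channels. Leaving out an array leaves no residual degree of freedom, so that alternative was not run as a test. Median centring gave 4 members at least 2-fold higher (2 with loess) and 0 lower (1 with loess) with Foxp3Cre, where the median was 0.81 (0.52 with loess). Of all genes, 13.4% were then higher and 6.72% lower there, against 2.93% and 11.5% with loess. With median centring limma called 1 member, Retnla, with an adjusted p of 0.0296 (0.0975 with loess, up to 0.234 over the alternatives). Median centring turned the sign of Lyz2 on the Foxp3Cre array (1.27) and of Cd68 (0.027) and Adgre1 (0.13) on the Cd4Cre array. Over all genes limma called 309 with median centring, 34 where only genes above background in all channels were kept, and 0 under the other settings run. That stricter filter removes Retnla and Spi1, and gave a median of -0.31 on the Cd4Cre array (0.25 otherwise) and 1 member higher on the Foxp3Cre array. With the mean over all probes 0 members were at least 2-fold lower on the Foxp3Cre array. Without scaling between arrays, chosen after seeing the data, the wild-type difference of Fcgr3 turned to 0.11 (from -0.12). Of the other planned values, 50 counts and medians and 130 single ratios kept their direction. These moved by less than the spread or factor allowed. A further 16 single ratios kept their sign and moved by more than that, some toward 0 and some away from it. The 130 include ratios that could not move. The filters on dim probes leave a ratio unchanged, and no member spot was flagged as an outlier. Low signals limit Spi1 and Retnla, whose dim channels give bounds only.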
